A study of Mus musculus with 8 samples.

Results

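Transcripts of 3 voltage-gated potassium channel subunit genes, Kcnv2, Kcnv1 and Kcnb2, were followed in bulk RNA sequencing of mouse retina. They were taken by gene symbol from a count table of 26824 genes, and all 3 were found. The libraries came from mice labelled wild type (WT 1 to WT 3) and mice with the genotype label Kv8.2 KO (KO 2 to KO 6). All mice were 1 month old and untreated, and by the labels each library pooled 2 retinas of an individual mouse. The labels name neither the strain nor the allele, nor the stretch of Kcnv2 that was removed. The series text states that 2 KO samples were left out of the authors' comparison without naming them, so all 8 libraries were used.

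Kv channels are assemblies of several subunits around a shared pore. Kv2 subunits, of which Kcnb2 encodes Kv2.2, form delayed rectifier channels on their own. Kv8 subunits, Kv8.2 from Kcnv2 and Kv8.1 from Kcnv1, are modulatory or silent: they carry no current alone and change the gating or surface level of Kv2 channels that they join. In rods and cones, channels that contain Kv8.2 lie in the inner segment membrane and carry the outward potassium current that balances the dark current, and loss of KCNV2 in people causes a cone dystrophy with an enlarged rod response.

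The pore region is shown first because it holds the feature that sets the silent subunits apart from the Kv2 subunit. Each stretch is coding sequence of 111 bases from a GENCODE M21 transcript (GRCm38), read 5′ to 3′ on the gene's strand. The first capitals are the glycine, tyrosine and glycine codons of the potassium selectivity filter (GGNTANGGN), and the second capitals are the 9 bases at the place in the last membrane segment where Kv2 subunits carry a proline, any residue, proline motif (CCNNNNCCN).
Kcnv2: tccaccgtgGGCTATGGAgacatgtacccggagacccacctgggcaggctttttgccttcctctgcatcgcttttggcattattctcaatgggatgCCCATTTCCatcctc
Kcnv1: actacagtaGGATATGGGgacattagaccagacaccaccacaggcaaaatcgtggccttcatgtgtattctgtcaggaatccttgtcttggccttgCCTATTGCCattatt
Kcnb2: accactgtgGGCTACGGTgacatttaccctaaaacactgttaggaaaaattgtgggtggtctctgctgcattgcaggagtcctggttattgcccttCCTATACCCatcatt

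The Kcnv2 stretch lies in exon 2 at chr19:27333651-27333761 on the plus strand, the Kcnv1 stretch in exon 3 at chr15:45109196-45109306 on the minus strand, and the Kcnb2 stretch in exon 3 at chr1:15710043-15710153 on the plus strand. All 3 held the filter codons in frame. Kcnb2 held CCNNNNCCN at 78 bases after them, and Kcnv2 and Kcnv1 did not hold it there. Searched on the sense strand in any frame, GGNTANGGN occurred in transcripts of 35.9% of 21901 genes with a protein-coding transcript, and the pair at that spacing in 0.534% (117 genes, of which 18 have symbols that start with Kcn). The stretches were identical at 64 of 111 bases between Kcnv2 and Kcnv1, at 63 between Kcnv2 and Kcnb2, and at 67 between Kcnv1 and Kcnb2.

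Little sequence was shared with other genes. None of the 31-base words of Kcnv2 or Kcnv1 transcripts occurred in another gene, and 19 of 15109 (0.126%) of those of Kcnb2 did. In GRCm38 coordinates of GENCODE M21, Kcnv2 (ENSMUSG00000047298) spans chr19:27322588-27337179 in 2 exons. Exon 1 holds 1407 of its 1686 coding bases, so the pore region shown above lies in the smaller, second coding block. Kcnv1 (ENSMUSG00000022342) spans chr15:45106284-45114920 and Kcnb2 (ENSMUSG00000092083) chr1:15287254-15723750. No annotated gene overlaps Kcnv2 or Kcnv1. Gm38116 and Gm37138 on the same strand and the small RNA gene Gm25227 on the other lie within the Kcnb2 span. They overlap none of its annotated exons, so their reads would enter Kcnb2 counts only if introns were counted. The deposited table gives 1 count per gene, so a deletion within a gene that leaves other exons transcribed cannot be seen in it.

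The libraries held 17759146 to 25188870 counts. Retinal markers were present in every library: all 10 rod, 8 cone, 6 bipolar and 5 Muller glia genes examined had counts above 0 in each. KO 4, KO 5 and KO 6 were alike, while KO 2 and KO 3 stood apart from them and from each other. Over all genes, chi-square per degree of freedom was 5.38 to 6.28 between pairs of KO 4 to KO 6 and 7.41 to 15.7 between WT pairs. Against KO 4 to KO 6 it was 38.8 to 54.4 for KO 2 and 84.2 to 100.3 for KO 3, and it was 96.0 between KO 2 and KO 3. A value for KO 2 and KO 3 together thus averages unlike libraries. Mitochondrial genes took 3.03% to 3.70% of the counts in KO 4 to KO 6, against 5.23% and 6.52% in KO 3 and KO 2 and 7.09% to 7.92% in WT. Lens marker genes summed to 45606 CPM (counts per 1e+06 after TMM scaling of library sizes) in KO 3 and to at most 1322 CPM elsewhere. The levels and ratios of the 3 subunit genes are therefore also described for KO 2 and KO 3 and for KO 4 to KO 6 apart. These 2 comparisons share the WT libraries. No WT library stands with KO 4 to KO 6, so in them genotype and library set cannot be told apart. KO 4 to KO 6 were set apart because they are alike, so p-values of that fit leave out the spread across all KO libraries.

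Of the 3 genes, 0 were called in edgeR's quasi-likelihood test over all 8 libraries (adjusted p-value under 0.05 over 20167 genes), where 7.58% of all tested genes were called (4.74% higher and 2.84% lower in KO). At an unadjusted p-value under 0.05 there was 1, Kcnv1, where 27.3% of all tested genes passed. DESeq2 called 0 of the 2 genes to which it gave an adjusted p-value, where it called 18.2% of the genes given one. The GC content offset also gave 0 calls (7.04% of all genes), and library size alone in place of TMM gave 1, Kcnv1 (6.71% of all genes). In contrast, limma voom with library quality weights called all 3 as lower, in a fit that called 40.9% of all genes. KO 4 to KO 6 alone against WT also gave 3 calls, all lower, among 42.8% of all genes called, and KO 2 and KO 3 alone against WT gave 0 calls, among 0.891% of all genes.

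**Figure D1:**
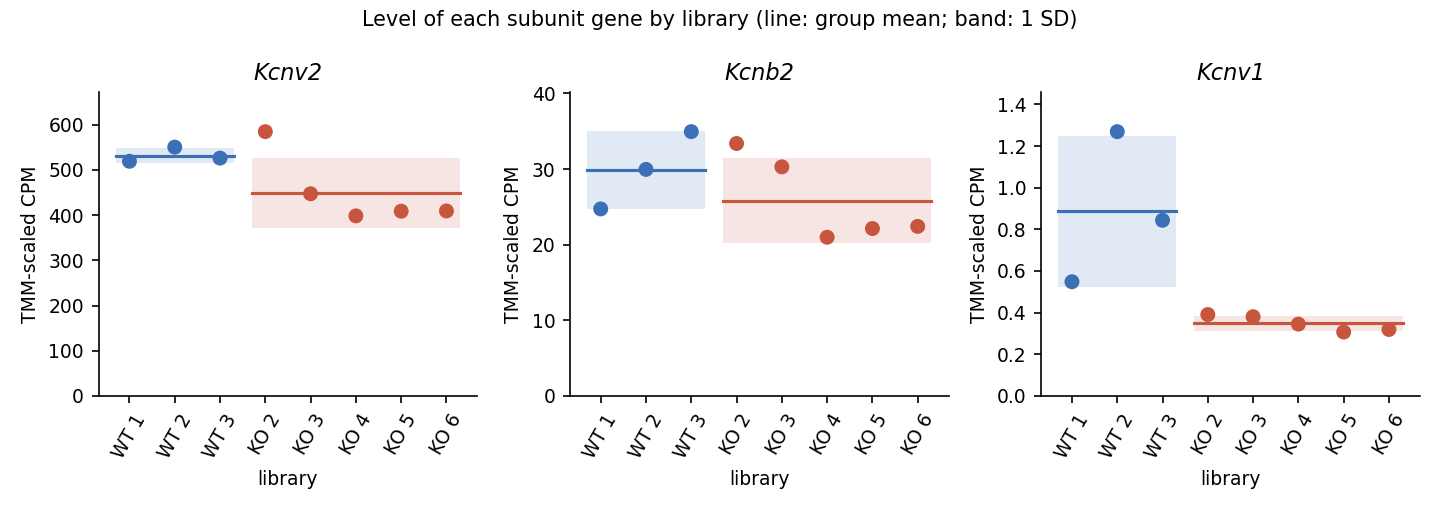
Level of Kcnv2, Kcnb2 and Kcnv1 in TMM-scaled CPM (y axis, from 0) in each of the 8 libraries (x axis; blue WT, red KO), with the group mean as a line and 1 SD as a band. KO 2 had the highest Kcnv2 level at 585 CPM and KO 4 to KO 6 the lowest, Kcnb2 overlapped between the groups, and Kcnv1 was below every WT library in every KO library at under 0.4 CPM.

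Kcnv2 was by far the most abundant of the 3. Per kilobase of its transcript of 5108 bases, it reached 104 ± 3.22 CPM in WT and 88.0 ± 15.2 CPM in KO (SD, n = 3 and n = 5). By its mean over all 8 libraries on this scale, it ranked 426 of 22121 genes with a known length. Its rank was 348 to 388 in the WT libraries and 342 to 542 in the KO libraries. It was also first among the 11 modulatory and Kv2 subunit genes examined, with Kcng4 at 5.75 ± 0.237 CPM per kilobase in WT (SD, n = 3).

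The raw counts of Kcnv2 were 9472, 11709 and 11851 in WT 1 to WT 3, and 13474, 9408, 8090, 7998 and 8985 in KO 2 to KO 6. In CPM they were 519, 551 and 526 in WT and 585, 447, 398, 409 and 409 in KO. KO 2 was above every WT library and the other KO libraries were below every WT library, so the groups overlapped through KO 2. Counting error was small against this spread: the 95% Poisson interval of the KO 4 count was 7915 to 8268 and that of KO 2 was 13247 to 13703, which covers counting error only. The coefficient of variation was 17.3% among KO libraries and 3.09% among WT libraries.

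The fold of KO over WT was 0.845 for Kcnv2, a log2 fold change of -0.24 (SE 0.14, edgeR adjusted p-value 0.275). Its 95% interval ran from 0.686-fold to 1.04-fold. The targeted gene was thus not missing from the libraries labelled KO, and a fall below 0.686-fold lay outside the interval. In KO 4 to KO 6 alone the log2 fold change was -0.38 (edgeR adjusted p-value 0.000116), and in KO 2 and KO 3 alone it was -0.04 (edgeR adjusted p-value 0.903). The latter averages KO 2, above every WT library, and KO 3, below every WT library. Without KO 2 the fall was called, at -0.35 (edgeR adjusted p-value 0.0298), where 13.9% of all genes were. Kcnv2 transcripts have a GC content of 48.3%, near the median of 49.1% over tested genes, and an offset for GC content left the log2 fold change at -0.24.

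Kcnb2, the Kv2.2 pore subunit, was expressed at a far lower level. Its length is uncertain, because 2 coding transcripts of 14845 and 3963 bases are annotated. Its level in WT was 2.01 ± 0.344 CPM per kilobase with the longer and 7.54 ± 1.29 with the shorter (SD, n = 3), below Kcnv2 in each library with either length. Its counts were 451, 637 and 787 in WT 1 to WT 3 and 769, 637, 426, 433 and 492 in KO 2 to KO 6.

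In CPM, Kcnb2 stood at 24.7, 30.0 and 34.9 in WT and at 33.4, 30.3, 21.0, 22.1 and 22.4 in KO. KO 2 and KO 3 fell within the WT range and KO 4 to KO 6 lay below it. The log2 fold change was -0.21 (SE 0.18, edgeR adjusted p-value 0.472). The 95% interval of the fold was 0.659 to 1.13. In KO 4 to KO 6 alone the log2 fold change was -0.44 (edgeR adjusted p-value 0.00531), and in KO 2 and KO 3 alone it was 0.09 (edgeR adjusted p-value 0.775).

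The direction for Kcnb2 also turned with GC content. Its longest transcript is 39.3% G and C, well under the median of 49.1%. With an offset for GC content in each library, the log2 fold change over all 8 libraries was 0.08 in place of -0.21 (edgeR adjusted p-value 0.730).

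Kcnv1, the other Kv8 silent subunit, was barely present. It had 10, 27 and 19 counts in WT 1 to WT 3 and 9, 8, 7, 6 and 7 counts in KO 2 to KO 6, above the floor of 3 counts in each library. The 95% Poisson interval was 17.8 to 39.3 for the 27 counts of WT 2 and 4.80 to 18.4 for the 10 counts of WT 1. In CPM the WT values were 0.548, 1.27 and 0.844, and the KO values ran from 0.307 in KO 5 to 0.391 in KO 2. All 5 KO libraries were below all WT libraries, as was the case on one side or the other for 20.9% of all tested genes.

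The fold of KO over WT for Kcnv1 was 0.395 with a 95% interval of 0.226 to 0.691. On the log2 scale this was -1.34 (SE 0.36), and its edgeR adjusted p-value of 0.0511 missed the threshold. Kcnv1 passed the filter on low counts through the WT libraries, where it was higher, so its presence among the tested genes already depends on that difference. It was removed by a filter of at least 1 CPM in 3 libraries. Leaving out WT 2 gave a log2 fold change of -0.99 (edgeR adjusted p-value 0.253), while leaving out KO 2 or KO 3 gave called falls of -1.38 and -1.36 (edgeR adjusted p-values 0.0447 and 0.0382), where 13.9% and 20.0% of all genes were called. The level was lower with either part of the KO libraries, at -1.20 in KO 2 and KO 3 (edgeR adjusted p-value 0.269) and -1.44 in KO 4 to KO 6 (edgeR adjusted p-value 0.0212). With the GC content offset it was -1.10 (edgeR adjusted p-value 0.0880), for a transcript with a GC content of 41.0%.

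**Figure D2:**
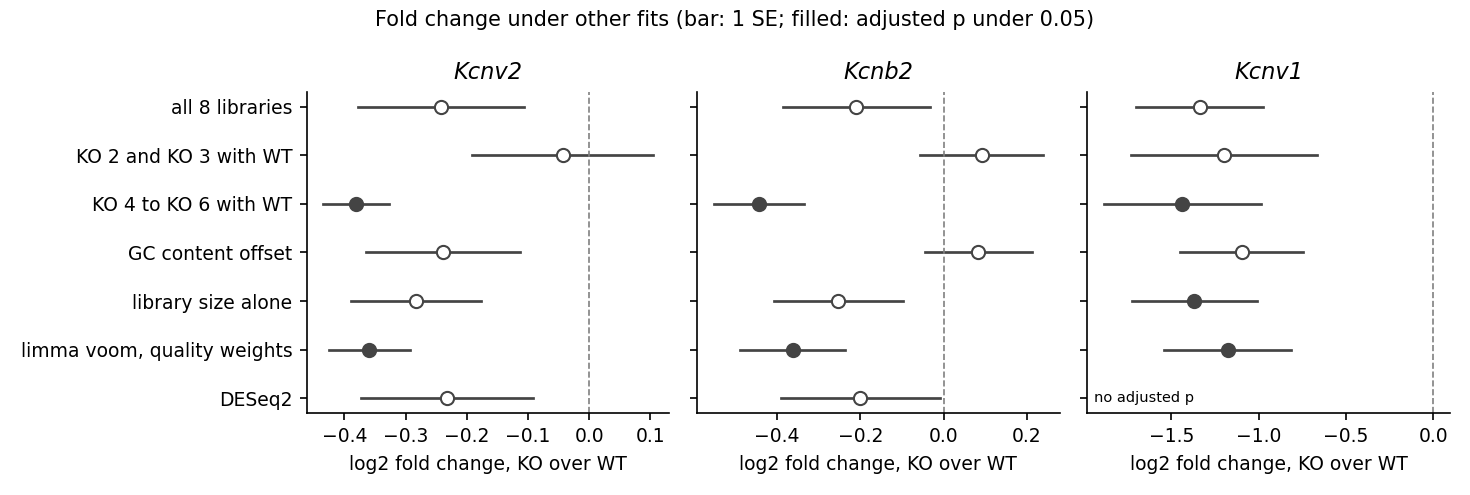
Log2 fold change of KO over WT (x axis) for Kcnv2, Kcnb2 and Kcnv1 under 7 fits (y axis), with bars of 1 SE and filled points for an adjusted p-value under 0.05. Kcnv2 was at -0.04 in KO 2 and KO 3 and at -0.38 in KO 4 to KO 6, Kcnb2 crossed 0 in KO 2 and KO 3 and with the GC content offset, and Kcnv1 was below 0 in each fit shown. DESeq2 gave no adjusted p-value for Kcnv1.

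Kcnv2 is a photoreceptor transcript, so its level was also set against rod and cone markers within each library. The difference in log2 CPM from the mean of 10 rod genes is not scaled to length, and only its change between libraries is read. It was -2.08, -2.15 and -2.06 in WT 1 to WT 3 and -2.20, -2.15, -2.63, -2.70 and -2.64 in KO 2 to KO 6. KO 2 and KO 3 were close to the lowest WT library, and KO 4 to KO 6 were all lower. The mean was -2.09 ± 0.05 in WT (SD, n = 3) and -2.46 ± 0.27 in KO (SD, n = 5), so Kcnv2 per rod transcript was 0.774-fold in KO. An exact permutation test over the 8 libraries gave p = 0.0714 (two-sided; the smallest it can give is 0.0357), and 0.286 after Benjamini-Hochberg adjustment over 4 ratios. The difference from WT was -0.079 in KO 2 and KO 3 and -0.56 in KO 4 to KO 6.

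The rod list itself had a summed level of 44521 to 48372 CPM in WT and of 39564 to 57868 CPM in KO, with 1 of its 10 genes called higher and 0 lower, against 4.74% and 2.84% of all tested genes. The list did not move as one: Nrl was lower in each KO library than in any WT library, and Sag higher. The lower ratio in KO 4 to KO 6 stood beside summed rod levels of 50190 to 54661 CPM, above every WT library, and their lower mitochondrial share; the part of either in the ratio was not tested. In bulk tissue, fewer cells of a type and less RNA in each cell cannot be told apart.

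Against the mean of 8 cone genes, the log2 ratio of Kcnv2 was 2.42 ± 0.07 in WT (SD, n = 3) and 2.45 ± 0.33 in KO (SD, n = 5), and the exact permutation p was 0.964 before and after adjustment. KO 2 and KO 3 were above every WT library, at 2.92 and 2.65, and KO 4 and KO 5 were below, at 2.20 and 2.13. Of the cone genes, 3 of 8 were called lower and 1 higher, against 2.84% and 4.74% of all tested genes. The summed cone level was 953 to 1190 CPM in WT and 688 to 916 CPM in KO, so this sum was lower in each KO library than in any WT library, though Pde6c was higher in each KO library than in any WT library. The part of the lower sum in the cone ratio was not tested.

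The silent subunit was also set against the Kv2.2 subunit in each library. The log2 ratio of Kcnv2 to Kcnb2 was 4.39, 4.20 and 3.91 in WT 1 to WT 3 and 4.13, 3.88, 4.24, 4.20 and 4.19 in KO 2 to KO 6. The groups overlapped, and the difference of -0.04 had an exact permutation p of 0.857, and 0.964 after adjustment. In KO 4 to KO 6 it was 0.05 and in KO 2 and KO 3 it was -0.16, each smaller than the WT SD of 0.24. Kcnb2 against the rod list differed by -0.33, from -6.26 ± 0.26 to -6.59 ± 0.39 (SD, n = 3 and n = 5), and the exact permutation p was 0.25, and 0.5 after adjustment. It was 0.082 in KO 2 and KO 3 and -0.61 in KO 4 to KO 6.

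**Figure D3:**
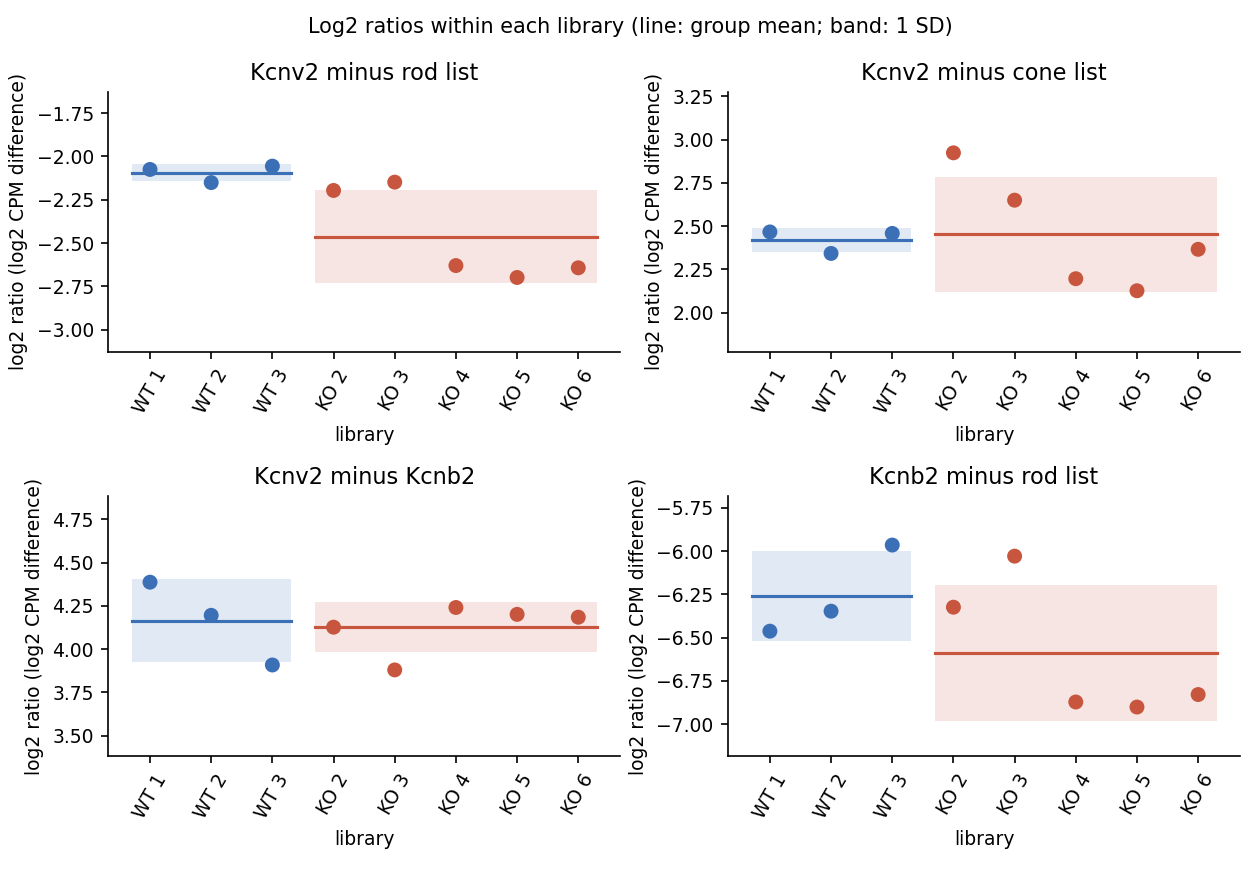
Log2 ratio (y axis, difference in log2 CPM) in each library (x axis; blue WT, red KO) of Kcnv2 to the rod list, to the cone list and to Kcnb2, and of Kcnb2 to the rod list, with the group mean as a line and 1 SD as a band. KO 4 to KO 6 lay below all other libraries in both ratios to the rod list, and the ratio of Kcnv2 to Kcnb2 overlapped between the groups.

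The other modulatory Kv subunits (Kv5, Kv6 and Kv9 families), which also join Kv2 channels, held the calls among these channel genes. Of the 8 genes, 2 rose and 0 fell in the edgeR test, with a median log2 fold change of 0.46 against 0.00 over all tested genes, of which 4.74% were called higher and 2.84% lower. Kcng1 (Kv6.1) rose in all 5 KO libraries, from 0.493 to 0.711 CPM in WT to 1.38 to 2.60 CPM in KO, a log2 fold change of 1.56 (SE 0.32, edgeR adjusted p-value 0.0234). Kcng4 (Kv6.4) rose from 20.9 to 22.6 CPM in WT to 24.8 to 38.2 CPM in KO, a log2 fold change of 0.56 (SE 0.13, edgeR adjusted p-value 0.0344). KO 3 had the lowest Kcng4 level among the KO libraries. Kcns2 (Kv9.2), the gene of the list with the highest CPM (not scaled to length) that was not called, was at 8.65 to 9.37 CPM in WT and 7.10 to 12.9 CPM in KO.

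Both genes were called in KO 4 to KO 6 alone, at 1.38 for Kcng1 and 0.68 for Kcng4 (edgeR adjusted p-values 0.00469 and 3.7e-05), as was Kcng2, in a fit that called 42.8% of all genes. Neither call held in KO 2 and KO 3 alone, where the log2 fold change was 1.79 for Kcng1 and 0.38 for Kcng4 (edgeR adjusted p-values 0.0840 and 0.183). With the GC content offset Kcng4 was at 0.33 (edgeR adjusted p-value 0.0623). Both calls were lost when any WT library was left out. The Kcng4 call was also lost with library size alone and without KO 4, KO 5 or KO 6, and the Kcng1 call without KO 5. Log2 fold changes over the alternatives were 1.29 to 1.79 for Kcng1 and 0.33 to 0.68 for Kcng4. Kcng1 had only 9 to 16 counts in WT libraries. Of the microglia markers 2 of 4, and of the Muller glia markers 1 of 5, were called higher in KO and 0 lower, against 4.74% and 2.84% of all tested genes. Summed microglia markers were at 15.9 to 19.0 CPM in WT and 21.3 to 31.5 CPM in KO, and summed Muller glia markers at 3014 to 3209 CPM in WT and 3019 to 4581 CPM in KO, where KO 3, KO 4 and KO 6 lay within the WT range. The mean log2 CPM of the 5 Muller glia genes, in which each gene weighs the same, was 7.56 to 7.65 in WT and 7.72 to 8.21 in KO. The part of these in the rise of Kcng1 and Kcng4 was not tested.

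Kv2 channels are tethered and assisted by other membrane proteins: Amigo1 encodes an auxiliary subunit, and Vapa and Vapb encode endoplasmic reticulum proteins that bind Kv2 at contact sites with the plasma membrane. Of these 5 partner genes (Amigo1, Amigo2, Amigo3, Vapa and Vapb), 0 were called by edgeR over all libraries, with a median log2 fold change of 0.18. At an unadjusted p-value under 0.05 there were 3: Amigo1 (log2 fold change 0.26), Amigo2 (0.30) and Vapa (-0.47), where 27.3% of all tested genes passed. Among these DESeq2 called Amigo2 and limma voom all 3, in fits that called 18.2% and 40.9% of the genes given an adjusted p-value. Vapb, with the highest CPM not scaled to length, stood at 153 ± 12.5 CPM in WT and 159 ± 7.96 CPM in KO (SD, n = 3 and n = 5).

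Other genes of the photoreceptor currents were examined as the setting in which the Kv8.2 current works. These are the cyclic nucleotide-gated channels, the sodium-calcium-potassium exchangers, Atp1b2, subunits of the synaptic calcium channel and the chloride channel Ano2. Of the 10 genes, 0 were called by edgeR over all libraries, with a median log2 fold change of 0.05. At an unadjusted p-value under 0.05 there were 3: Atp1b2 (log2 fold change 0.35), Cacna1f (-0.43) and Ano2 (0.31), against 27.3% of all tested genes. DESeq2 called these 3 (18.2% of genes given an adjusted p-value), and limma voom called them and 4 others (40.9% of all genes). Cacna1f, which encodes the pore subunit of the synaptic calcium channel, was at 327 to 382 CPM in WT and 204 to 306 CPM in KO, and was called lower in KO 2 and KO 3 alone, in KO 4 to KO 6 alone and with the GC content offset (0.891%, 42.8% and 7.04% of all genes called). These 3 genes are named because of their values. Slc24a1, the rod exchanger and the gene with the highest CPM not scaled to length, was at 1685 ± 27.9 CPM in WT and 1675 ± 417 CPM in KO (SD, n = 3 and n = 5).

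**Figure D4:**
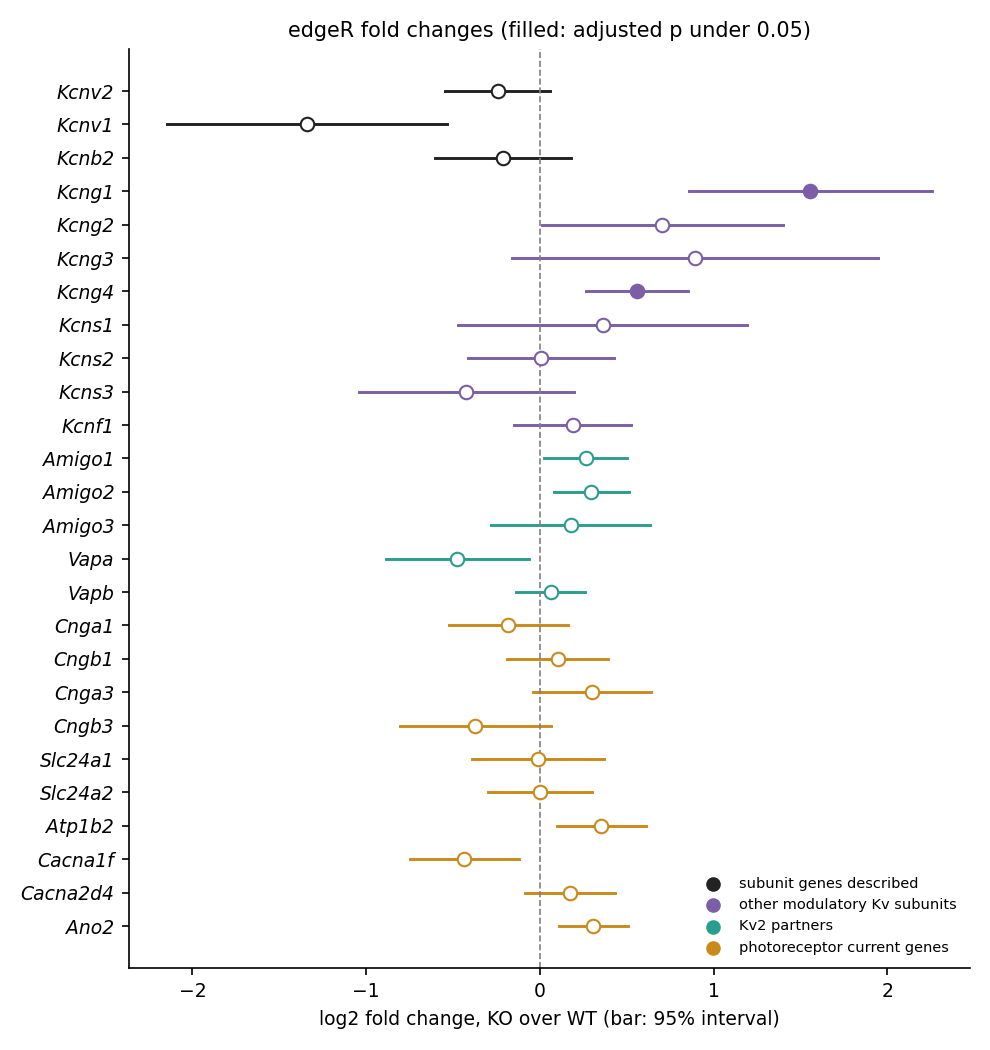
Log2 fold change of KO over WT from edgeR over all 8 libraries (x axis; bars are 95% intervals) for the 3 subunit genes and the 23 genes of the 3 lists (y axis), with filled points for an adjusted p-value under 0.05. Kcng1 and Kcng4 were called higher, and the intervals of Kcnv2 and Kcnb2 include 0.

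Genes with the pattern most like each subunit gene were found by Pearson correlation of log2 CPM over the 8 libraries, among 10594 or 10595 genes that averaged 3 or more on that scale. The libraries share depth, scaling and the set of KO 4 to KO 6, so these values describe the pattern and have no p-value. For Kcnv2 the 5 nearest were Ppfia2, Nyap2, Ptgr2, Vsx1 and Pdcl, with correlations of 0.984 to 0.990. Ppfia2 encodes a liprin of the presynaptic active zone, Vsx1 a transcription factor of bipolar cells and Pdcl a phosducin-like protein. Each was highest in KO 2 and lowest in KO 4, KO 5 or KO 6, as Kcnv2 was, which follows from how they were chosen. The correlation was 0.974 to 0.989 after the group means were taken out and 0.977 or more when any library was left out. Both come from the libraries by which these genes were chosen, so they are not separate support.

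**Figure D5:**
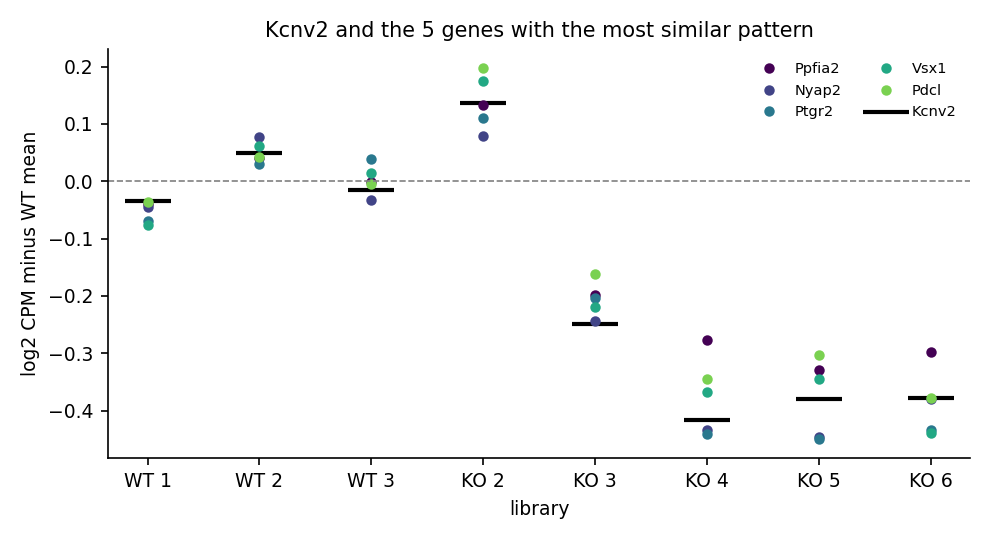
Log2 CPM minus the WT mean (y axis) in each library (x axis) for Kcnv2 (black bars) and the 5 genes with the most similar pattern (coloured points). All were highest in KO 2 and lower in KO 3 to KO 6 than in WT.

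For Kcnb2 the 5 nearest genes were Fastkd1, Kbtbd8, Cops8, Stau2 and Ubr7, with correlations of 0.953 to 0.974. Stau2 encodes a double-stranded RNA binding protein of neurons. For Kcnv1 they were Rnf227, Tmem218, Slc30a5, Ciao1 and Spp1, with correlations of 0.963 to 0.984. Kcnv1 was lower in every KO library, so a difference of these genes between the groups follows from how they were chosen and is not tested. After the group means were taken out the correlations were 0.832 to 0.939. Spp1 encodes osteopontin, a secreted protein made by some retinal ganglion cells. The Kcnv1 pattern rests on 6 to 27 counts per library, so its likeness carries the counting error given above. No gene was among the 5 nearest of more than 1 of the 3 subunit genes.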

How the data were processed

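RNA from whole mouse retina was sequenced in 3 WT and 5 KO libraries. The authors deposited whole-number counts per gene, in a table whose rows all sum to at least 16. Trim Galore, Salmon 1.10.2, DESeq2 and GRCm38 are named in the submitters' processing notes without their roles. The annotation and strand setting are not given in the sources used here. If Salmon made the counts, they are estimates rounded before deposit.

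The counts were tested with edgeR 4.0.16 (TMM, filterByExpr, quasi-likelihood, all 8 libraries in 1 fit), with Benjamini-Hochberg adjustment over 20167 genes and a threshold of 0.05. DESeq2 1.42.0 and limma 3.58.1 were alternatives, beside other scalings, filters, a GC content offset, left-out libraries and a replicate block. Log2 CPM used a prior count of 2. Lengths and sequences came from GENCODE M21, in which 22121 of 26824 gene IDs were found. The fit was tested on simulated counts drawn with a common dispersion taken from the WT libraries, so the wider spread among KO libraries was not simulated. Poisson intervals are exact at 95% and cover counting error only.

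Replicates are separate mice by the labels, and each pair of libraries within a group differed by more than counting noise. The members and gene lists were chosen with earlier results of these data known. The genes named are the 3 members, the called genes and the uncalled gene of each list with the highest CPM, and the 5 genes most like each member (mean log2 CPM of at least 3, without predicted or sex-linked genes). Other genes named were chosen after their values were seen. The photoreceptor current list held 2 further genes that are not reported here.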

Additional observations from a re-analysis of the deposited data

Results flagged for a closer look

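In the 5 KO libraries, 1 library lay far from the nearest other for 6 of the 30 levels and ratios examined. The measure was its gap to the nearest library as a share of the whole KO range, with 0.71 as the limit. Chance would give about 1.5 such gaps among 30 independent values. These values share the same 5 libraries, so 6 cannot be set against 1.5. KO 2 was the highest library for Kcnv2, with a gap of 0.738 of the range. It was also the highest for Kcns2 (0.716), Cnga1 (0.868) and Slc24a1 (0.796). KO 3 was the lowest for Amigo2 (0.838) and Cngb1 (0.731). Cnga1, Amigo2 and Cngb1 are named here because of these values. KO 2 also had the highest summed rod marker level, 57868 CPM, and KO 3 the lowest, 39564 CPM, with the high lens marker level. The part of either in these gaps was not tested.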

How the results depend on the processing

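The direction for Kcnv2 and Kcnv1 was negative in every alternative that gave a value, and that for Kcnb2 was not. Kcnv2 was called in KO 4 to KO 6 alone (-0.38), without KO 2 (-0.35) and with limma voom (-0.36). Kcnv1 was called with library size alone (-1.37), without KO 2 (-1.38), without KO 3 (-1.36), in KO 4 to KO 6 (-1.44) and with limma voom (-1.18). It could not be tested at 1 CPM in 3 libraries, and DESeq2 gave it no adjusted p-value. Kcnb2 was called in KO 4 to KO 6 (-0.44) and with limma voom (-0.36), and turned positive in KO 2 and KO 3 alone (0.091) and with the GC content offset (0.083). Leaving out libraries, alone or in pairs of KO, gave -0.38 to -0.15 for Kcnv2, -1.58 to -0.99 for Kcnv1 and -0.44 to -0.057 for Kcnb2.

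The number of genes called was 1529, and 118 to 8416 with libraries left out, 180 in KO 2 and KO 3, 8416 in KO 4 to KO 6, 8248 with limma voom and 3066 with DESeq2. Library size alone gave 566 higher and 787 lower calls, against 956 and 573 with TMM. Calls among the other modulatory subunits were 1 with library size alone, 1 with the GC content offset, 0 in KO 2 and KO 3, and 0 to 3 with libraries left out. Calls among partner and current genes were 0 over all libraries, 1 in KO 2 and KO 3, 11 in KO 4 to KO 6, 1 with the GC content offset, 10 with limma voom, 4 with DESeq2 and 0 to 11 with libraries left out. Of the uncalled genes, Kcns2 turned to -0.038 with library size alone, -0.19 in KO 4 to KO 6 and -0.19 with limma voom, and ran from -0.20 to 0.17 with libraries left out. Slc24a1 turned to 0.16 in KO 2 and KO 3 and 0.0025 with DESeq2, and ran from -0.19 to 0.12 with libraries left out. Vapb ran from -0.0053 to 0.11.

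The labels do not say that shared numbers mark related animals, and same-numbered WT and KO libraries deviated from their group means with correlations of 0.00 (number 2) and -0.24 (number 3). With a replicate block over the libraries numbered 2 and 3, 52 genes were called, against 14 in those 4 libraries without it and 527 with the crossed pairing, added after seeing the data. The replicate block gave -0.07 for Kcnv2, -1.42 for Kcnv1, -0.02 for Kcnb2, -0.028 for Vapb and 0.090 for Slc24a1, and 0 calls in both gene lists; without it Vapb was at -0.027, Slc24a1 at 0.15 and calls in both lists at 0. Paired differences of the ratio of Kcnv2 were -0.069 to the rod list and 0.39 to the cone list.

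The ratio of Kcnv2 to the cone list was -0.19 in KO 4 to KO 6 and -0.088 to 0.11 with libraries left out, and that to Kcnb2 was 0.045 and -0.16 to 0.075. Kcnb2 against the rod list was 0.082 in KO 2 and KO 3. Kcnb2 in WT was 7.54 CPM per kilobase with its shorter transcript. The cause of these changes was not tested. Depth limits Kcnv1, at 6 to 27 counts per library.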
